A study of Gallus gallus with 8 samples.

Results

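Crystallins are the bulk proteins of the eye lens, and this account follows the mRNA of the chicken alpha, beta and delta crystallins in the retina. Of 38439 probe sets on the arrays, 14 were annotated with a listed crystallin gene, and all 10 listed genes had at least 1 of them: CRYAA, CRYAB, CRYBA1, CRYBA2, CRYBA4, CRYBB1, CRYBB2, CRYBB3, ASL1 and ASL2. The platform lists ASL2 under the symbol ASL, and it was matched by its gene identifier. CRYBA4 was measured by 4 probe sets, CRYBB1 by 2 and the other genes by 1 each.

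The retinas came from White Leghorn chicks aged 9 days, all labelled male, and were hybridized to chicken arrays of the Affymetrix GeneChip type. In 4 plus lens chicks both eyes wore +6.9 D spectacle lenses for 24 h, which imposes myopic defocus, and the 4 control chicks wore none. The question was which retinal mRNAs differ while eye growth is being slowed by defocus. Both retinas of a chick were pooled on 1 array, so that each array is 1 chick, and 4 arrays per group limit the precision. The whole retina was extracted, and fewer cells of a type and less RNA per cell cannot be told apart.

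Alpha crystallins belong to the small heat shock proteins and keep other proteins from clumping. CRYAA is largely restricted to the lens, while CRYAB is made in many tissues, glia among them. Beta crystallins are structural proteins of lens fibres that share a fold of paired Greek key domains, and several of them are known from vertebrate retina as well. Delta crystallin is the main soluble protein of the bird lens, where the enzyme argininosuccinate lyase was recruited as a crystallin. The duplicated genes ASL1 and ASL2 lie side by side, and in lens ASL1 is the dominant one while ASL2 kept the enzyme activity.

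Although all 8 chicks were labelled male, 6 arrays carried signal of genes on the W, the chromosome of hens. The 12 W-linked probe sets used were chosen for a wide range over these same arrays, so the size of the gap partly reflects that choice. Their mean was 8.26 to 8.62 (log2) on the 6 arrays, among them all 4 plus lens arrays. It was 3.07 and 3.72 on those of control replicates 4 and 2. The fluidics station was number 2 for all 4 plus lens arrays and number 1 for all 4 control arrays, and the plus lens arrays were scanned first, so station, scan order and treatment cannot be told apart. In each array 53.4% to 53.8% of the probe sets lay below an intensity of 16, a log2 intensity of 4, which served here as the line between a signal and the background. Retinal markers were present: all 7 measured Mueller glia markers lay above that line on every array, and so did 6 of 7 measured rod and cone markers. Probe sets bind with unequal strength, so levels are compared between arrays, and an intensity does not rank genes by transcript amount. Where intensities were summed over a list, the share of a gene is a share of array signal and not of transcripts. The common line is likewise only a rough guide across genes.

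Most crystallin genes lay below the line in every retina. On all 8 arrays 6 of the 10 genes lay below the line at every probe set, namely CRYAA, CRYBA2, CRYBB1, CRYBB3, ASL1 and ASL2. The brighter set of CRYBB1 came close to the line, with intensities of 13.4 to 15.3. The line is a convention, and a value below it is no proof of absence. In the paper ELF1 and OSBP2 had control intensities below it, and real-time RT-PCR measured a change in both. CRYAB, CRYBA1, CRYBA4 and CRYBB2 had a probe set above the line on every array. By probe set, 6 of 14 were above the line on all arrays, 8 were below it on all arrays, and none crossed it. Of all 38439 probe sets 50.7% were below the line on every array, so the 8 of 14 is near the share of the whole array.

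**Figure D1:**
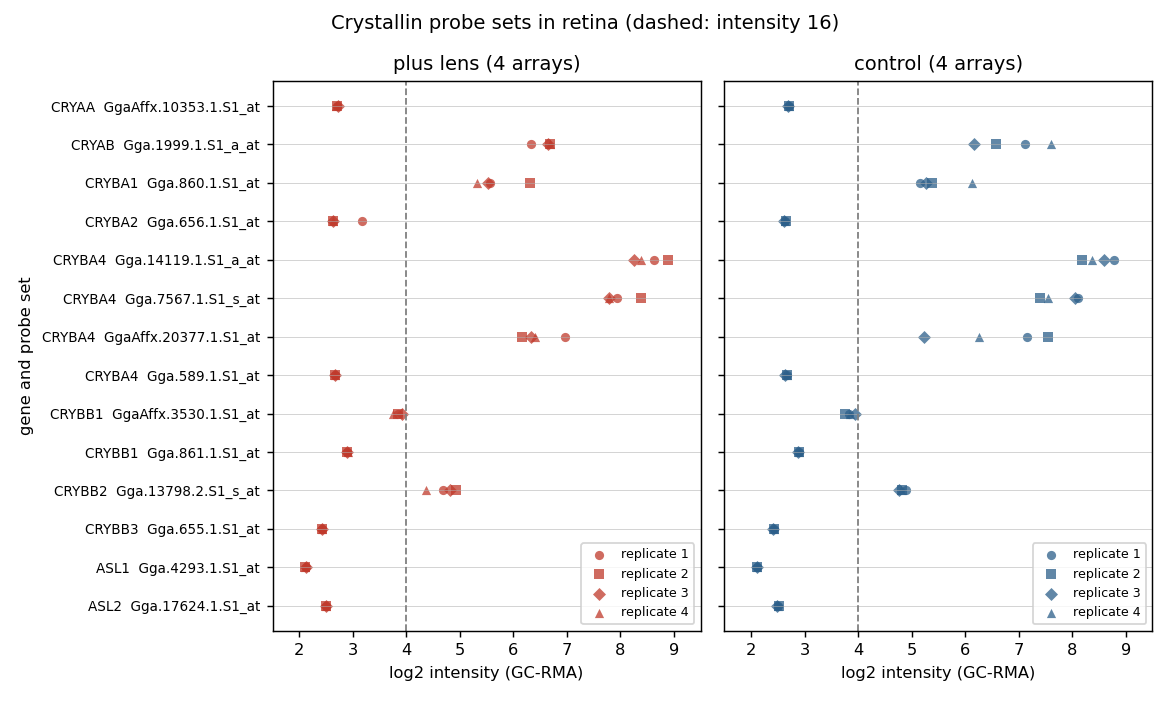
Log2 intensity of the 14 crystallin probe sets (rows) in the 4 plus lens chicks (left panel, red) and the 4 control chicks (right panel, blue), with 1 marker shape per replicate and a dashed line at a log2 intensity of 4. The 8 dim probe sets stay left of the line in every chick, and the 6 bright ones belong to CRYAB, CRYBA1, CRYBA4 and CRYBB2.

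The delta crystallins, which dominate the bird lens, were at background and nearly constant. ASL1 had a log2 intensity of 2.12, 2.12, 2.12 and 2.11 in plus lens replicates 1 to 4 and of 2.12, 2.12, 2.11 and 2.12 in control replicates 1 to 4. ASL2 had 2.50, 2.50, 2.50 and 2.49 in plus lens and 2.50, 2.52, 2.49 and 2.50 in control chicks. Over all 8 arrays ASL1 varied by 0.012 and ASL2 by 0.035 (log2), and neither gave a signal above background in either group. Each gene had 1 probe set, so an absent transcript and a set that fails to bind it cannot be told apart. The 2 genes are close copies of each other, so each value could include binding of the other's transcript. Of the enzymes that work beside argininosuccinate lyase in arginine synthesis and the urea cycle, ASS1, OTC and CPS1 were below the line on all arrays as well, while ARG2, a mitochondrial arginase, lay at 11.31 ± 0.08 in plus lens and 11.34 ± 0.15 in control chicks (log2, SD, n = 4 each).

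The lens-restricted CRYAA lay at 2.70, 2.70, 2.71 and 2.69 in plus lens and at 2.71, 2.70, 2.69 and 2.70 in control chicks. CRYBB3 was as flat, from 2.42 to 2.43 in plus lens and from 2.41 to 2.43 in control chicks. The 2 probe sets of CRYBB1 were dim on every array, one at 2.88 to 2.90 in plus lens and 2.88 to 2.89 in control chicks, the other at 3.75 to 3.92 in plus lens and 3.75 to 3.94 in control chicks. CRYBA2 had a single raised array, plus lens replicate 1 at 3.17, against 2.63, 2.63 and 2.63 in the other plus lens chicks and 2.64, 2.64, 2.62 and 2.62 in controls. That array was still below the line. No fold change is given singly for genes below the line in both groups.

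The dim probe sets differed little from array to array. Of the 8, 6 varied by less than 0.1 over the arrays, with ranges of 0.012 to 0.045 (log2), and 6 were lowest in control replicate 3. The median of all 19497 probe sets that were below the line on every array varied by 0.017 in the same data, and it too was lowest in control replicate 3, at 2.40 against 2.41 to 2.42 in the other 7 arrays.

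The dim lens crystallins were accompanied by dim lens genes of other kinds. Of 16 measured genes of lens fibres, lens membranes and lens fate other than crystallins, 12 were below the line on all arrays. Of all probe sets, 50.7% were below it on all arrays. The lens genes were counted at their brightest probe set and the 50.7% counts every set, so the shares differ in unit. Among the 12 lens genes were MIP, the water channel of lens fibres, at 2.33 in plus lens and 2.32 to 2.58 in control chicks, and BFSP1 and BFSP2, the beaded filament proteins, at most 3.33 and 2.55 in any array. FOXE3, a transcription factor of the lens epithelium, lay at 2.03 to 2.04 in plus lens and 2.02 to 2.04 in control chicks. The 4 genes above the line were PLA2G7, CAPRIN2, TDRD7 and FABP7, which are also made outside the lens, FABP7 for example in glia. The summed level of the list was 10.85 to 11.59 (log2 of the summed intensities) in plus lens and 10.91 to 11.46 in control chicks, of which FABP7 alone made up 43.2% to 63.9%. Without FABP7 it was 9.93 to 10.12 in plus lens and 9.82 to 10.09 in control chicks, carried by the other 3 genes above the line, so the sum is no measure of lens tissue. MIP, BFSP1, BFSP2 and FOXE3 were at background in both groups, while CRYAB, CRYBA1, CRYBA4 and CRYBB2 each had a probe set above it. No lens sample was measured, so the response of these lens probe sets could not be checked. The part of lens tissue in the crystallin levels was not tested.

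**Figure D2:**
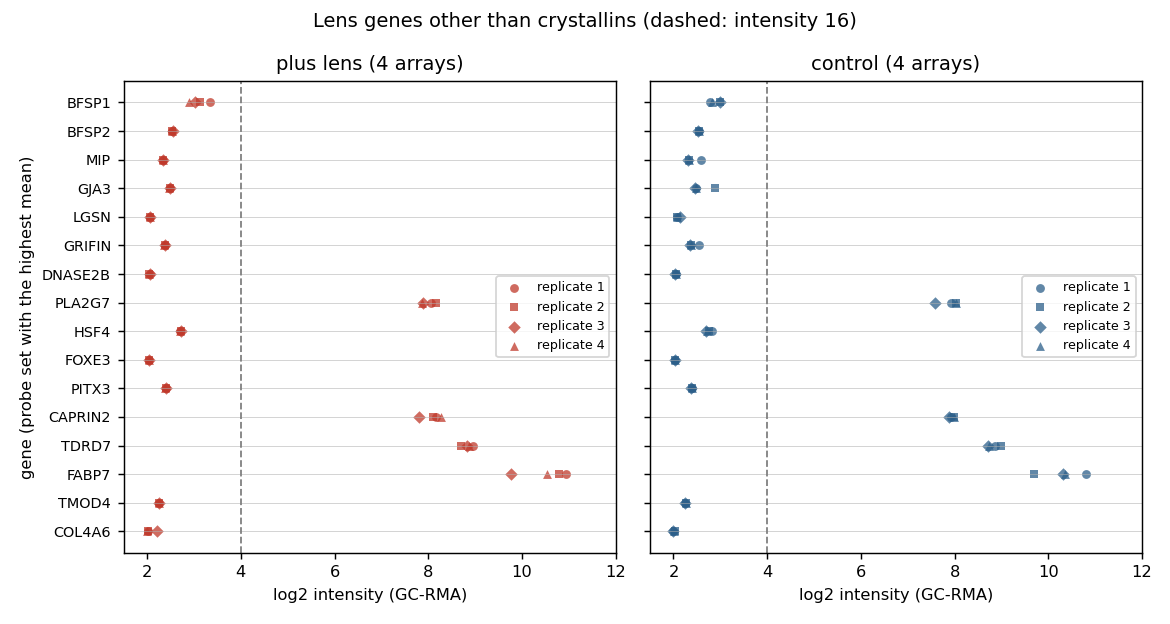
Log2 intensity of 16 lens genes other than crystallins, each at its brightest probe set, in the 4 plus lens (left, red) and 4 control chicks (right, blue), with a dashed line at 4. Only PLA2G7, CAPRIN2, TDRD7 and FABP7 lie right of the line, and MIP, BFSP1, BFSP2 and FOXE3 stay left of it in all 8 chicks.

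CRYAB, the small heat shock protein, was the alpha crystallin gene above the line in these retinas. Its log2 intensity was 6.34, 6.69, 6.66 and 6.68 in plus lens replicates 1 to 4 and 7.12, 6.58, 6.16 and 7.61 in control replicates 1 to 4, which corresponds to intensities of 81.0 to 103.5 in plus lens and 71.4 to 195.7 in control chicks. The control chicks thus spanned a wider range than the plus lens ones and enclosed all of them. The means were 6.59 ± 0.17 in plus lens and 6.87 ± 0.63 in control chicks (SD, n = 4 each), a log2 fold change of −0.28 (SE 0.31, 95% interval −1.02 to 0.47) that missed the threshold (limma, Benjamini-Hochberg adjusted p = 0.981). Single controls moved the value, since without control replicate 4 the log2 fold change was −0.03, and without control replicate 3 it was −0.51. Without control replicates 2 and 4, the arrays that lack W-linked signal, it was −0.05. HSPB2, a small heat shock gene that lies next to CRYAB in the genome, was below the line on all arrays.

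CRYBA1, which encodes the beta A3 and A1 crystallins, was above the line in every retina. It had a log2 intensity of 5.56, 6.30, 5.53 and 5.33 in plus lens and 5.16, 5.37, 5.26 and 6.13 in control chicks. One chick of each group stood higher, plus lens replicate 2 and control replicate 4, and the groups overlapped. The means were 5.68 ± 0.43 in plus lens and 5.48 ± 0.44 in control chicks (SD, n = 4 each), a log2 fold change of 0.20 (SE 0.29, 95% interval −0.50 to 0.90, Benjamini-Hochberg adjusted p = 0.994, limma). Without plus lens replicate 2 it was −0.0073, and without control replicates 2 and 4 it was 0.47. On the RefSeq annotation of GRCg7b CRYBA1 overlaps NUFIP2, which had 3 of its 4 probe sets above the line.

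CRYBB2, a basic beta crystallin known from regenerating retinal neurons of mammals, lay just above the line. Its log2 intensities were 4.68, 4.92, 4.82 and 4.36 in plus lens and 4.90, 4.81, 4.75 and 4.79 in control chicks, intensities of 20.5 to 30.3 in plus lens and 27.0 to 29.8 in control chicks. Plus lens replicate 4 was the lowest of all 8. The means were 4.70 ± 0.25 in plus lens and 4.81 ± 0.06 in control chicks (SD, n = 4 each). The log2 fold change was −0.12 (SE 0.12, 95% interval −0.40 to 0.17, Benjamini-Hochberg adjusted p = 0.979, limma) and −0.0062 without that array. CRYBB3, its neighbour on chromosome 15, was at background throughout. The only probe set of CRYBB2, Gga.13798.2.S1_s_at, has a suffix that marks probes able to match more than 1 transcript. Which transcript it binds was not tested.

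CRYBA4, an acidic beta crystallin, was the gene on which the probe sets disagreed. The set listed with the RefSeq mRNA of the gene, Gga.589.1.S1_at, was at background, at 2.66 to 2.67 in plus lens and 2.62 to 2.67 in control chicks. The 3 sets listed with other sequence records were above the line on every array. Gga.14119.1.S1_a_at had 8.63, 8.89, 8.25 and 8.38 in plus lens and 8.78, 8.18, 8.59 and 8.37 in control chicks. Gga.7567.1.S1_s_at had 7.93, 8.38, 7.78 and 7.79 in plus lens and 8.11, 7.40, 8.06 and 7.55 in control chicks. GgaAffx.20377.1.S1_at had 6.97, 6.16, 6.32 and 6.41 in plus lens and 7.15, 7.55, 5.23 and 6.26 in control chicks, with a range of 2.32 over the 8 arrays, the widest of the 14.

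Of the 3 bright sets, the first pair moved together from chick to chick, and no such relation to the third was detected. Gga.14119.1.S1_a_at and Gga.7567.1.S1_s_at correlated over the 8 arrays with r = 0.92 (exact permutation p = 0.00139, 0.00833 after Benjamini-Hochberg adjustment over the 6 pairs of CRYBA4 probe sets) and Spearman's rho = 0.95 (exact permutation p = 0.00114, adjusted 0.00685). The coefficient was 0.94 after the group means were removed and 0.81 without plus lens replicate 2 and control replicate 2, the arrays farthest from the median. With GgaAffx.20377.1.S1_at they gave r = −0.21 and −0.39 (exact permutation p = 0.627 and 0.337). A suffix of _s_at marks a set whose probes can match more than 1 transcript, and _a_at one that matches several transcripts of a gene. In the RefSeq annotation CRYBA4 and CRYBB1 overlap on chromosome 15. Without the probe sequences it was not tested which transcript the 3 bright sets bind. The level of CRYBA4 in these retinas is therefore uncertain, from background at the RefSeq set to an intensity of 289.6 to 475.8 at the brightest.

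**Figure D3:**
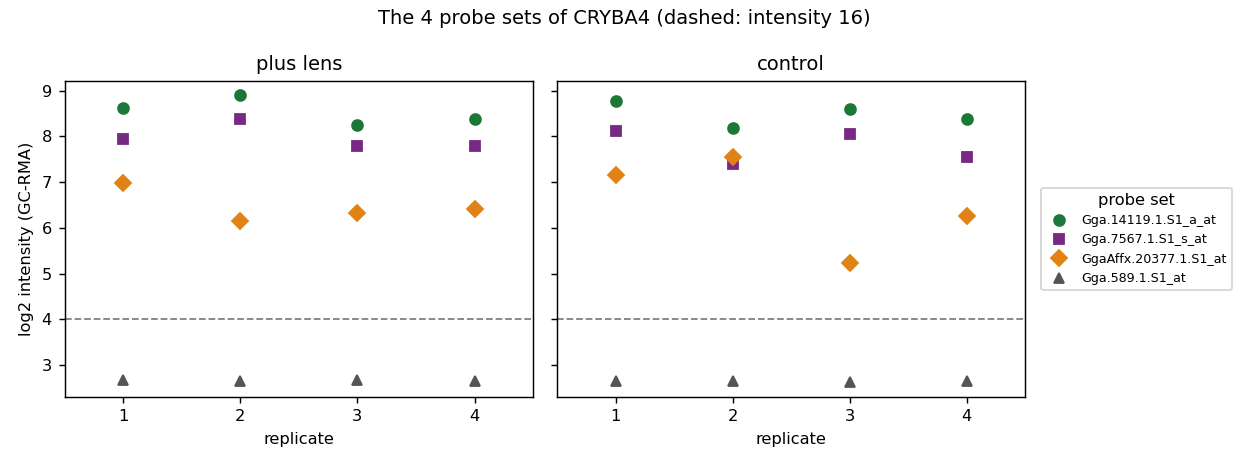
Log2 intensity of the 4 probe sets of CRYBA4 by replicate in plus lens (left) and control chicks (right), with a dashed line at 4. The green and purple sets rise and fall together from chick to chick, the orange set ranges from 5.23 to 7.55, and the grey set stays at 2.62 to 2.67.

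No crystallin probe set passed a threshold between plus lens and control chicks. With the criterion of 1.5-fold or more and an adjusted p under 0.06, 0 of 14 were called, against 0% of all probe sets. With 1.5-fold or more and an unadjusted p under 0.05, 0 of 14 passed, against 0.421% of all (0.229% higher and 0.193% lower in plus lens chicks). The 8 dim sets and CRYBB2 each varied by less than 1.5-fold over all 8 arrays, so they could not pass. The counts that require 1.5-fold therefore bear only on CRYAB, CRYBA1 and the 3 bright sets of CRYBA4. Without the fold threshold, an unadjusted p under 0.05 was reached by 0 of 14, by limma and by the methods' t-test alike, against 4.53% of all probe sets by limma. In 0 of 14 did the groups lie apart without overlap, against 2.86% of all. Over the 10 genes, each at its brightest probe set, the median log2 fold change was 0.00076, and over all probe sets tested it was 0.0016. As 6 of the 10 genes lay below the line, a median near 0 mostly reflects background. With the dim probe sets left out of the fit, the median over the 4 genes above the line was −0.030. Of the 6 bright probe sets 3 were higher and 3 lower in plus lens chicks, with log2 fold changes of −0.28 to 0.20 and exact two-sided permutation p-values of 0.429 to 0.857, where 4 against 4 arrays cannot go below 0.0286.

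The intervals say what size of change these arrays could have missed. In the fit of all arrays, the 95% interval of the difference lay within 1.5-fold in both directions at CRYBB2 and at Gga.14119.1.S1_a_at of CRYBA4. It ran from −0.40 to 0.17 and from −0.38 to 0.50 (log2). At CRYAB, CRYBA1 and the other bright sets of CRYBA4 it reached beyond 1.5-fold on at least 1 side, and at GgaAffx.20377.1.S1_at it ran from −1.31 to 1.15. At CRYBA4 the direction differed between probe sets, with log2 fold changes of 0.06, 0.19 and −0.08 at the 3 bright ones. At the brightest it was −0.15 (SE 0.20) without the 2 control arrays that lack W-linked signal. Without control replicate 1 it was 0.16 (SE 0.18). For CRYBB2 the log2 fold change without those 2 control arrays was −0.13 (SE 0.18). Intervals of these fits were not computed, so a 1.5-fold change is not excluded for either gene. Arrays of the same replicate number shared a fluidics module number, but on different stations, and they were not taken as pairs. Plus lens minus control at the same number, the difference ran from −0.94 to 0.50 for CRYAB and −0.80 to 0.93 for CRYBA1. It ran from −0.34 to 0.72 for CRYBA4 and −0.43 to 0.11 for CRYBB2.

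**Figure D4:**
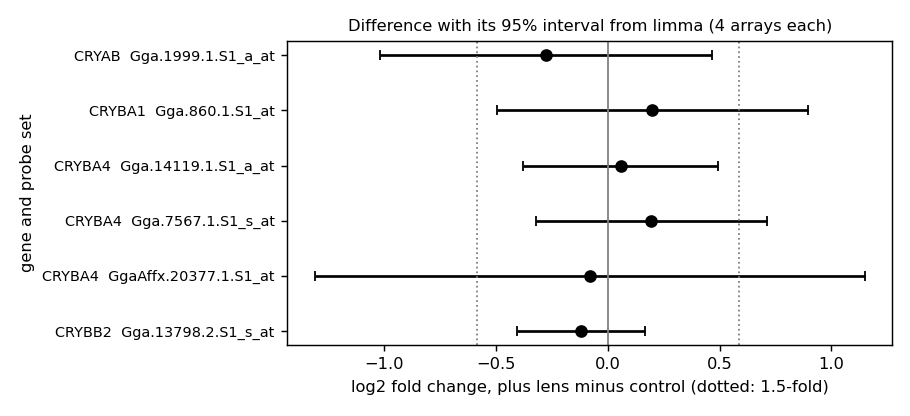
Log2 fold change of the 6 bright crystallin probe sets, plus lens minus control chicks (point), with its 95% interval from limma (bar, 4 arrays each) and dotted lines at 1.5-fold. Every bar crosses 0, and the bar of GgaAffx.20377.1.S1_at from −1.31 to 1.15 is the longest.

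No common movement of the 4 genes above the line was detected from chick to chick. Their 6 pairs had Pearson's r of −0.06 to 0.40 and Spearman's rho of 0.05 to 0.43 over the 8 arrays, and none reached an exact permutation p below 0.324. CRYAB and CRYBA1, with the highest coefficient, had r = 0.40 (exact permutation p = 0.324, adjusted 0.815 over 45 pairs), and r was −0.29 without control replicates 3 and 4. CRYBA4 and CRYBB2, both beta genes of chromosome 15, had r = 0.32 (exact permutation p = 0.479). CRYBA4 stood in these pairs at its brightest probe set, whose target was not tested. Its other bright sets were not paired with these genes. Over all 45 pairs of the 10 genes 2 had an exact permutation p under 0.05, CRYBB3 with ASL1 (r = 0.84, p = 0.0123) and CRYAA with CRYBB2 (r = 0.76, p = 0.0221), and 0 passed after adjustment (smallest adjusted p = 0.497). Each of these 2 pairs holds at least 1 gene at background.

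CRYAB varied from chick to chick together with a few genes of myelin, with lower coefficients for MBP and CNP once control replicates 3 and 4 were left out. The retina of birds holds oligodendrocytes and myelinated axons, and CRYAB is known as a protein of oligodendrocytes. Among 2534 probe sets of other genes with a range of at least 1 (log2) and a highest array above the line, the 5 most like CRYAB over the 8 arrays were those of KIAA0040 (r = 0.94), EARS2 (0.93), UBTD1 (0.92), MBP (0.92) and CNP (0.90). MBP, the myelin basic protein, and CNP, an enzyme of myelin, both mark oligodendrocytes. This search was made after the values of CRYAB had been seen, and its coefficients are a description without a test.

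At its brightest probe set MBP had 12.12, 12.36, 12.45 and 12.31 in plus lens and 12.47, 12.03, 11.48 and 12.90 in control chicks. CNP had 6.85, 7.34, 7.10 and 7.12 in plus lens and 7.12, 6.77, 6.61 and 8.17 in control chicks. As with CRYAB, control replicate 4 was the highest of the 8 arrays and control replicate 3 the lowest in both genes. At these probe sets r with CRYAB was 0.89 for MBP (rho = 0.90) and 0.90 for CNP (rho = 0.90), and without these 2 arrays it was 0.70 and 0.49. The 3 bright probe sets of MBP disagreed: the remaining one, at 10.43 to 10.98 over the arrays, had r = 0.05 with CRYAB and was highest in plus lens replicate 3.

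Not every gene of that cell type did so. Of 22 oligodendrocyte and myelin genes listed after this likeness was seen, 11 were above the line on all arrays at their brightest probe set, and 9 of these correlated positively with CRYAB, with r from −0.63 for MOBP to 0.90 for CNP and a median of 0.55. PLLP had r = 0.84 and UGT8 r = 0.73, and without control replicates 3 and 4 these were −0.02 and 0.32. Without these 2 arrays only 5 of the 11 kept a positive r, MBP, CNP, OLIG2, UGT8 and ASPA, while SOX10 went to −0.51 (0.40 with them) and CLDN11 to −0.37 (0.55 with them). Control replicate 4 was the highest array in 8 of the 11. Over the 2534 probe sets, chosen for a range of at least 1, the median r with CRYAB was −0.02, and 1.18% had r above 0.8. The myelin list holds MBP and CNP, which that search had found, and genes of smaller range such as TF (0.42). Its median r is therefore not comparable with that of the 2534 and is no test. All 8 arrays share one normalization, and the part of oligodendrocytes in the level of CRYAB was not tested.

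**Figure D5:**
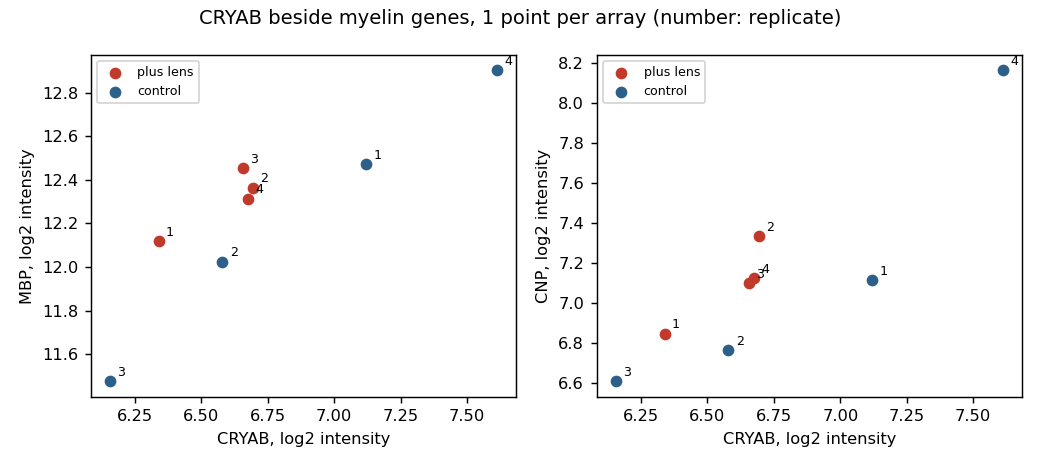
Log2 intensity of MBP (left) and CNP (right) against that of CRYAB, 1 point per chick, red for plus lens and blue for control, numbered by replicate. Control replicate 4 lies at the upper right and control replicate 3 at the lower left in both panels, with the plus lens chicks between them.

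Markers of other retinal and neighbouring cells were set beside CRYAB over all arrays only. Their coefficients were not recomputed without the control arrays that were left out for the myelin genes. Among Mueller glia markers r with CRYAB ran from −0.48 for AQP4 to 0.49 for CLU. RPE65, a pigment epithelium enzyme, had r = 0.73 and rho = 0.52 with CRYAB. RPE65 was highest in control replicate 4, with 8.19 to 9.18 in plus lens and 8.69 to 10.48 in control chicks. It was lowest in plus lens replicate 4, while CRYAB was lowest in a control chick. How far the r of RPE65 rests on control replicate 4 was not tested. Of 10 measured pigment epithelium markers 5 were below the line on all arrays, TYR, PMEL and MLANA among them. DCT and TYRP1, enzymes of pigment synthesis, had log2 fold changes of −1.69 (SE 0.49, Benjamini-Hochberg adjusted p = 0.964, limma) and −1.51 (SE 0.61, adjusted p = 0.979). Both were under an unadjusted p of 0.05 but not past adjustment. TYRP1 reached the line on 1 array only, control replicate 2 at 5.47, and DCT on 5, so these fold changes rest largely on values near or below the line. Both genes were highest in control replicate 2 and not in control replicate 4. The summed level of the list was 12.20 to 12.53 (log2) in plus lens and 12.35 to 12.86 in control chicks, but RLBP1, which Mueller glia also make, held 79.1% to 91.8% of it. Without RLBP1 it was 8.59 to 9.36 in plus lens and 8.94 to 10.60 in control chicks. That remainder was carried mostly by RPE65, so it is no level of the list as a whole. The part of pigment epithelium in the level of CRYAB was not tested.

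Small heat shock proteins and crystallins beyond the 10 genes also gave no calls. Of all 38439 probe sets 0 were called, so the lack of calls does not set these genes apart. Of 7 measured small heat shock genes 4 were above the line on all arrays, HSPB1, HSPB8, HSPB9 and HSPB11, and 0 were called, with the largest difference at HSPB9 (log2 fold change 0.58, SE 0.25, adjusted p = 0.979). Of 9 measured genes of further crystallins 5 were above the line, the enzyme crystallins of other animals CRYM, CRYZ and CRYL1 together with CRYZL1 and CRYBG3, and again 0 were called. The largest difference among these 5 was that of CRYL1, at 0.30 (log2 fold change, Benjamini-Hochberg adjusted p = 0.979, limma). The gamma crystallin genes CRYGS and CRYGN were below the line on all arrays.

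The retina held several transcription factors that act on crystallin genes. Of 18 measured regulators 12 were above the line on all arrays. Their log2 fold changes ran from −0.40 at RXRA (SE 0.21) to 0.44 at SOX2 (SE 0.27), with a Benjamini-Hochberg adjusted p of 0.979 at both (limma). PAX6 lay at 13.03 ± 0.14 in plus lens and 13.08 ± 0.16 in control chicks, and PROX1 at 11.86 ± 0.09 in plus lens and 11.79 ± 0.11 in control chicks (log2, SD, n = 4 each), while FOXE3 and PITX3 were at background. MAFA, the chick L-Maf that switches on delta and alpha crystallin genes in lens, lay at 6.50 ± 0.29 in plus lens and 6.11 ± 0.34 in control chicks (SD, n = 4 each), a log2 fold change of 0.39 (SE 0.21, Benjamini-Hochberg adjusted p = 0.979, limma). HSF2 and HSF3, the heat shock factors above the line, had log2 fold changes of 0.06 and −0.0099, and HSF4, which acts in lens, was at background.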

How the data were processed

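Retinal RNA of 8 chicks was hybridized to Affymetrix GeneChip Chicken Genome arrays. The deposited values are linear intensity, made by the authors with GC-RMA, which subtracts a background modelled on probe GC content, normalizes between arrays and gives 1 value per probe set. Its version is not given here. The log2 was taken without further scaling or filter, and Affymetrix control probe sets were left out. The platform annotation supplied the symbols (27168 probe sets with 1, 177 with several, 11094 with none), and chromosomes and neighbours were from RefSeq on GRCg7b. Sequences were not used here.

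Groups were compared over all 38439 probe sets with limma 3.58.1 in R 4.3.3 (plus lens minus control, no block) with Benjamini-Hochberg adjustment over all of them. Single values and correlations carry exact permutation tests. A gene was represented by its probe set with the highest mean, and all probe sets of the 10 genes are described. The fit was tested on simulated data. The same replicate number in both groups correlated by −0.0134 to 0.111 over probe sets, so that numbers were not taken as pairs. The members and gene lists were chosen with earlier results of these data known.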

Additional observations from a re-analysis of the deposited data

Results flagged for a closer look

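In 3 of 28 groups of 4 arrays, 2 for each of the 14 crystallin probe sets, 1 array stood apart from the other 3 by more than Dixon's 95% critical ratio, where chance gives about 1 in 20 groups. CRYAB in plus lens replicate 1 lay at 6.34, against 6.66 to 6.69 in the other plus lens chicks, a gap of 0.896 of the range. CRYBA2 in plus lens replicate 1 lay at 3.17, against 2.63 in the others, a gap of 0.996 of the range and still below the line of 4. The background-level probe set of CRYBA4 in control replicate 3 lay at 2.62, against 2.66 to 2.67, a gap of 0.931 of a range of only 0.042.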

How the results depend on the processing

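The number of crystallin probe sets called or listed stayed at 0 under all 19 alternatives of the fit. Both counts require 1.5-fold, which in the deposited values was out of reach of the 8 dim sets and CRYBB2. No share of all probe sets is set beside the counts of these alternatives. Among the alternatives were the methods' t-test, array weights, a floor of 16, a filter on dim probe sets, quantile normalization and median centring. The replicate block (0 called, 0 listed) and each array left out in turn were others. Arrays of 1 replicate number shared a module number but not a fluidics station, so that block cannot separate station from treatment. CRYAB and CRYBB2 kept their direction throughout, with log2 fold changes of −0.54 to −0.03 and −0.19 to −0.0062. CRYBA4 turned to −0.15 when the 2 control arrays that lack W-linked signal got a term or were left out, and over single arrays left out ran from −0.060 without plus lens replicate 2 (−0.042 without control replicate 2) to 0.16 without control replicate 1. With single arrays left out CRYBA1 ran from −0.0073 without plus lens replicate 2 to 0.42 without control replicate 4. Of the 6 correlations of bright genes, 4 changed sign without the 2 arrays farthest from the median of the gene named first. They went to −0.29 for CRYAB and CRYBA1, 0.34 for CRYAB and CRYBA4, −0.43 for CRYBA1 and CRYBA4 and −0.12 for CRYBA1 and CRYBB2. Arrays far from the median of the second gene were not left out, so the count may depend on the order of the genes. Spearman's rho, added after the data were seen, also left 0 of 45 pairs past adjustment. No fold change was followed for the 6 genes below the line, where the signal sets the limit.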

Other observations

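The brightest probe set of CRYBA4 was most like those of ORMDL1 (r = 0.94), RNF219 (0.92), TENM4 (0.90), SPCS1 (0.90) and ABI3 (0.89) over the 8 arrays, among 2534 probe sets of other genes. The CRYBA4 probe set with the widest range was most like those of NDST3 (r = 0.93), ZFP91 (0.92), PCDH11X (0.87), ARID2 (0.87) and FSCN1 (0.87), so the 2 searches shared no gene. In searches added after the values were seen, CRYBA1 had lower coefficients, with GPATCH3 (0.87) at the head, and CRYBB2 was most like MCU (0.94), the mitochondrial calcium channel, and SLC16A14 (0.93). These are the largest values of a search over many probe sets and few arrays, and carry no test.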
